A study of Mus musculus with 6 samples.

Results

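Marker genes of the cells that build the bone marrow niche, as opposed to the blood cells that live in it, were followed in RNA sequencing of purified bone marrow monocytes. The 9 genes were chosen by name: *Cxcl12* and *Lepr* for reticular stromal cells, *Col1a1*, *Col1a2* and *Sparc* for cells that make bone and other matrix, *Adipoq* for adipocytes, and *Cdh5*, *Kdr* and *Emcn* for endothelial cells. All 9 had a row among the 49585 gene rows of the table. The 6 libraries came from marrow monocytes of *Syk*del/del *Rosa26CreER*(T2)+/+ mice and of *Syk*+/+ *Rosa26CreER*(T2)+/+ mice, 3 libraries of each, and were compared to ask how loss of the kinase SYK alters the cells that seed atherosclerotic plaques. Both groups had received a high-fat diet for 8 weeks. The methods of the study describe C57BL/6J mice and give oral tamoxifen on 3 consecutive days at 7 to 8 weeks of age, a diet begun at 8 weeks of age and male mice for in vivo work. *Rosa26* drives the inducible Cre in nearly all tissues, so the deletion was not limited to monocytes. The monocytes were taken with an isolation kit, and no source used here says that the 3 libraries of a genotype came from separate mice, so each p-value reflects the variation among these libraries alone, which may be technical.

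Reticular stromal cells line the sinusoids of the marrow and secrete CXCL12, the chemokine that retains CXCR4-bearing stem cells, B cells and monocytes in the marrow. Osteoblasts lay down bone matrix, most of which is type I collagen, and sinusoidal endothelial cells form the wall that monocytes cross on their way to the blood. Monocytes themselves are not known as a main source of the products of these genes, which mark the other cells of the tissue.

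Promoter sequence is shown for 3 genes: *Cxcl12*, which carried most of the reads, *Adipoq*, whose profile over the libraries was closest to that of *Cxcl12*, and *Col1a2*, whose levels did not overlap between the genotypes. RefSeq windows on GRCm38.p6 matched 7 of the 9 genes. *Col1a1* and *Cdh5* had no match. Each run below is the 250 bases before an annotated start, 5′ to 3′ on the plus strand, at chr6:117168285-117168534 for *Cxcl12*, chr16:23146286-23146535 for *Adipoq* and chr6:4505368-4505617 for *Col1a2*. Capitals mark the CCAAT box (CCAAT, or ATTGG on the other strand) and the GC box (GGGCGG, or CCGCCC on the other strand), and the TATA box (TATAAA, or TTTATA) was searched as well.
Cxcl12: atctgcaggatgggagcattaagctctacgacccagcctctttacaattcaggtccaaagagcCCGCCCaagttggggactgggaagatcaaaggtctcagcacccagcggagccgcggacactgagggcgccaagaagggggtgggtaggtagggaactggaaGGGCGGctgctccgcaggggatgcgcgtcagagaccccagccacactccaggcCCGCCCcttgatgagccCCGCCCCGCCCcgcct
Adipoq: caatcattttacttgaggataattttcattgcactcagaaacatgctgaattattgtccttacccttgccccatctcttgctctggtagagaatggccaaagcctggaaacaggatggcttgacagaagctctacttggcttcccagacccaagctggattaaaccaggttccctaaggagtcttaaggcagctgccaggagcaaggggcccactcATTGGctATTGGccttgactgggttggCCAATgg
Col1a2: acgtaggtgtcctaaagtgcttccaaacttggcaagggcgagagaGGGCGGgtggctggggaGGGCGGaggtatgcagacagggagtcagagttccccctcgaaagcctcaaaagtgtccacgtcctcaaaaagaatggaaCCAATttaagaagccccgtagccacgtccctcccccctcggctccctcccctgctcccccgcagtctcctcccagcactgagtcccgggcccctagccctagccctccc
The *Cxcl12* window held 5 GC boxes, of which 2 shared 1 base, and no CCAAT box, and 64.4% of its bases were G or C. The *Adipoq* window held 3 CCAAT boxes within 34 bases of the start and no GC box, with 48.8% G or C. The *Col1a2* window held 1 CCAAT box and 2 GC boxes, with 62.0% G or C. The TATA box was in none of these 3 windows. Among 32851 RefSeq windows of this length, 33.8% held a CCAAT box, 32.7% a GC box and 12.4% a TATA box, and the median content of G and C was 52.4%. The matches describe letters in a window, not bound sites.

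Values are normalized counts, that is, the read count of a gene multiplied by 1 factor for each library, so they depend on the length of a gene. Levels of different genes were set in order only after division by exon length, and ratios or sums of normalized counts were compared only between libraries. The libraries labelled *Syk*del/del held 4168626 to 6254375 reads and the *Syk*+/+ libraries 6805111 to 7071823. *Syk* had 4794, 5094 and 4712 normalized counts in the libraries labelled *Syk*del/del, against 4463, 5527 and 5427 in *Syk*+/+ libraries (log2 fold change -0.07, SE 0.10, adjusted p = 1, limma). The deleted exon is not given in the sources used here and reads from the remaining exons are counted, so the level of *Syk* does not check the labels. The monocyte markers *Lyz2*, *F13a1* and *Ccr2* had 10783 normalized counts or more in every library. Libraries were compared in pairs by chi-square on the genes above a minimum of reads. Replicate 1 labelled *Syk*del/del differed from replicates 2 and 3 by 10.0 and 11.3 per degree of freedom, over 11586 and 11408 genes. Replicates 2 and 3 of that label differed by 2.39. Such values also depend on depth, which differed between libraries. Pairs of *Syk*+/+ libraries differed by 3.66 to 7.46. In the fit over all genes, 50 of 13886 genes had an adjusted p under 0.05, and 49 of these were lower in those labelled *Syk*del/del.

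The 9 genes spanned a wide range of levels. Per kb of exon, *Cxcl12* averaged 66.6 ± 40.0 normalized counts in libraries labelled *Syk*del/del and 92.3 ± 22.0 in *Syk*+/+ libraries (SD, n = 3 each). *Sparc* averaged 6.31 and 13.3 per kb, *Adipoq* 8.91 and 11.3, *Col1a1* 3.00 and 7.24, *Col1a2* 3.81 and 6.30, and *Lepr* 4.07 and 5.72, each given for libraries labelled *Syk*del/del and then for *Syk*+/+ libraries. Over the 6 libraries the ranges of these 5 genes overlapped, so their order per kb is not set apart from the spread, while the lowest *Cxcl12* library, at 40.1 per kb, was above the highest library of any of the other 8 genes, at 15.8 for *Adipoq*. The endothelial genes were near the limit of counting, with 0.761 and 1.33 per kb for *Cdh5*, 0.332 and 0.377 for *Kdr*, and 0.0616 and 0 for *Emcn*. For scale, *Csf1r*, the receptor for the main growth factor of monocytes, had 1158 and 1383 per kb in libraries labelled *Syk*del/del and in *Syk*+/+ libraries, and *Cxcr4*, the receptor for CXCL12, had 1180 and 1141.

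**Figure D1:**
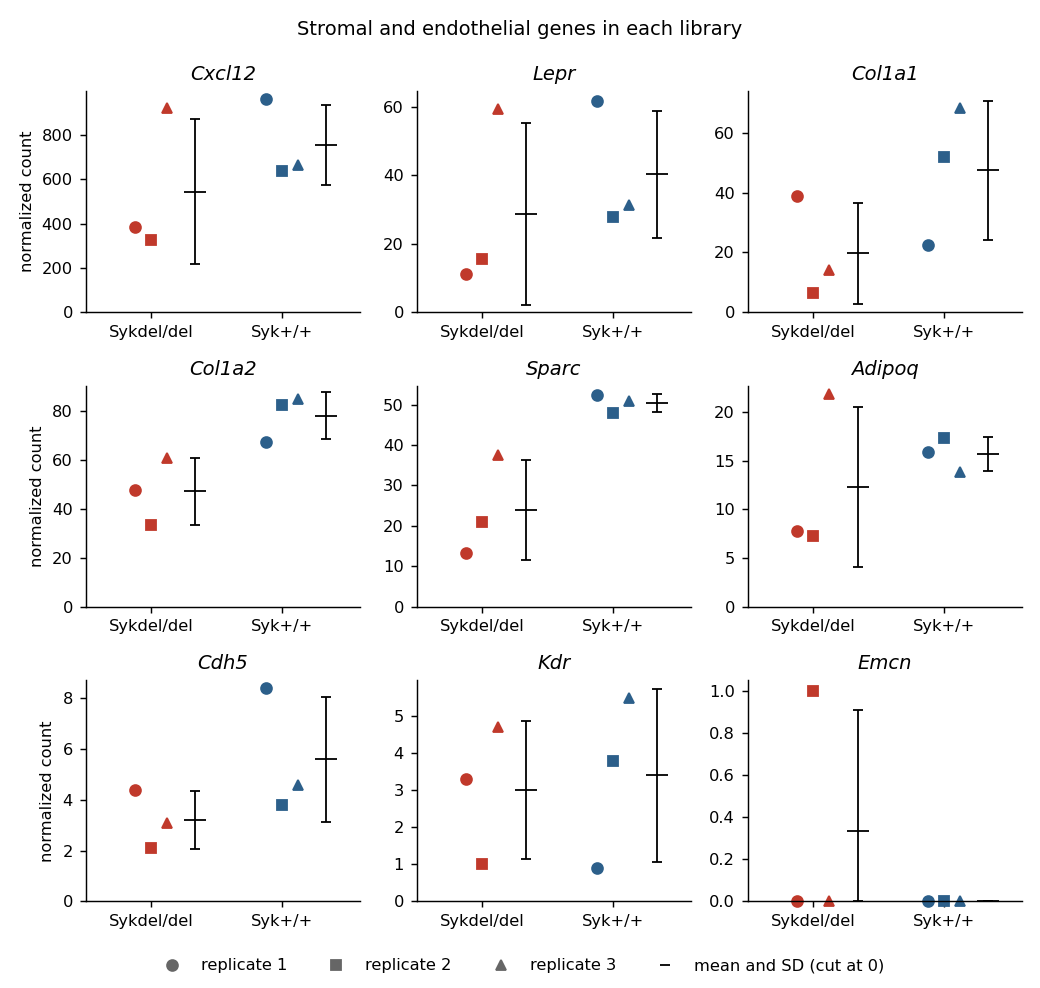
Normalized counts of the 9 genes (y axes, from 0, scaled to each gene) in each library labelled Sykdel/del (left, red) and each Syk+/+ library (right, blue). Symbols give the replicate number and the bars the mean and SD of 3 libraries. Replicate 3 labelled Sykdel/del, at 921 for Cxcl12 and 59.3 for Lepr, sits among the Syk+/+ libraries while the other 2 libraries of its label lie below them.

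*Cxcl12*, at chr6:117168535-117181367 on the plus strand of GRCm38 with 8.176 kb of exon, had the highest level per kb of the 9 genes. It had 384.6, 327.6 and 920.8 normalized counts in replicates 1, 2 and 3 labelled *Syk*del/del, against 962.3, 637.6 and 664.4 in *Syk*+/+ replicates 1, 2 and 3. Replicates 1 and 2 labelled *Syk*del/del were lower than every *Syk*+/+ library, but replicate 3 was higher than 2 of them, so the groups overlapped. The log2 fold change of libraries labelled *Syk*del/del over *Syk*+/+ libraries was -0.60 (SE 0.29, adjusted p = 0.962, limma), with a 95% interval of -1.23 to 0.02, so the difference did not exceed the spread between libraries. In bulk RNA of this kind, fewer cells of a type and less RNA per cell cannot be told apart.

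*Lepr*, the leptin receptor that marks reticular stromal cells, lies at chr4:101717404-101815352 on the plus strand. Its levels were 11.1, 15.6 and 59.3 in libraries labelled *Syk*del/del, against 61.7, 27.8 and 31.4 in *Syk*+/+ libraries (log2 fold change -0.76, SE 0.50, adjusted p = 1, limma). Replicates 1 and 2 labelled *Syk*del/del were again the lowest of the 6, at 10 and 15 reads, and replicate 3 was second only to *Syk*+/+ replicate 1. For both *Cxcl12* and *Lepr* the order of the 4 highest libraries was the same, running from *Syk*+/+ replicate 1 to replicate 3 labelled *Syk*del/del and on to *Syk*+/+ replicates 3 and 2. The other 12 genes of the reticular list were all tested, and none passed an adjusted p of 0.05, with 11 below 0, 3 lower at an unadjusted p under 0.05 and a median log2 fold change of -0.52. *Igfbp5*, which encodes a secreted binder of insulin-like growth factors and has the highest normalized counts of these 12, had 97.5, 162.7 and 408.9 normalized counts in libraries labelled *Syk*del/del, against 446.1, 290.0 and 301.7 in *Syk*+/+ libraries (log2 fold change -0.86, SE 0.37, adjusted p = 0.861, limma). It followed the library order of *Lepr*, as did *Cxcl14*. Other genes of the list did not. *Pdgfrb* and *Prrx1*, 2 of the 12, were lower without overlap, as were 5.24% of all genes tested. *Pdgfrb* had 13.3, 9.4 and 17.2 normalized counts in libraries labelled *Syk*del/del, against 26.2, 47.0 and 30.5 in *Syk*+/+ libraries (unadjusted p = 0.00141, adjusted p = 0.179, limma). *Prrx1* had no read in replicate 3 labelled *Syk*del/del.

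Of the 3 genes of bone and other matrix, *Col1a2* and *Sparc* did not overlap between the genotypes, although none of the 3 passed the adjusted threshold. *Col1a2*, for the alpha-2 chain of type I collagen at chr6:4504814-4541544 on the plus strand, had 47.7, 33.4 and 60.9 normalized counts in libraries labelled *Syk*del/del, against 67.3, 82.6 and 84.9 in *Syk*+/+ libraries. Every library labelled *Syk*del/del was below every *Syk*+/+ library, with a log2 fold change of -0.75 (SE 0.23, unadjusted p = 0.00611, adjusted p = 0.414, limma). *Sparc*, for a secreted protein that binds collagen and calcium, lies at chr11:55394500-55423183 on the minus strand. It had 13.3, 20.9 and 37.5 normalized counts in libraries labelled *Syk*del/del, against 52.4, 48.0 and 50.8 in *Syk*+/+ libraries, again without overlap. Its log2 fold change was -1.16 (SE 0.32, unadjusted p = 0.00299, adjusted p = 0.271, limma), with a 95% interval of -1.85 to -0.47. The *Syk*+/+ libraries were tight for *Sparc*, with an SD of 2.23 around a mean of 50.4, against an SD of 12.4 around 23.9 in the libraries labelled *Syk*del/del.

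*Col1a1*, for the partner alpha-1 chain at chr11:94936224-94953042 on the plus strand, was highest in the same *Syk*+/+ libraries as *Col1a2* but overlapped between the genotypes. It had 38.8, 6.3 and 14.0 normalized counts in libraries labelled *Syk*del/del, against 22.4, 51.9 and 68.3 in *Syk*+/+ libraries, and replicate 1 labelled *Syk*del/del was higher than *Syk*+/+ replicate 1. The log2 fold change was -1.43 with an SE of 0.53 (unadjusted p = 0.0183, adjusted p = 0.705, limma), and it lay between -2.08 without replicate 1 labelled *Syk*del/del and -0.85 without replicate 2 of that label. Type I collagen is assembled from both chains, yet *Col1a1* per 100 *Col1a2* ran from 18.9 in replicate 2 labelled *Syk*del/del to 81.3 in replicate 1 of the same label, and from 33.3 to 80.4 in *Syk*+/+ libraries. These ratios rest on few reads, since replicate 2 labelled *Syk*del/del held 6 reads of *Col1a1* and 32 of *Col1a2*.

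Among 15 further genes of osteoblasts and bone matrix, 7 were tested, and all 7 were below 0 with a median log2 fold change of -0.29. None passed an adjusted p of 0.05 by limma and 1 was lower at an unadjusted p under 0.05. That gene was *Runx2*, a transcription factor required for osteoblasts that blood cells also express, with 458.9, 391.2 and 398.0 normalized counts in libraries labelled *Syk*del/del and 479.7, 509.9 and 509.3 in *Syk*+/+ libraries (log2 fold change -0.27, SE 0.10, adjusted p = 0.678, limma). Markers of the lineage differed in whether they were detected. *Ibsp*, for bone sialoprotein, had 239 reads over the 6 libraries, *Spp1*, for osteopontin, 282, *Ifitm5* 56 and *Phex* 16, and none of these 4 passed the adjusted threshold. *Bglap3*, *Omd*, *Mepe* and *Sost* had no read in any library, and 4 more of the list were below the filter. With no read, up to 3 reads per library remain possible, or 2.77 to 4.68 normalized counts. Of 25 further collagen and matrix genes, 21 were tested, 17 were below 0, 7 were lower at an unadjusted p under 0.05, and none passed an adjusted p of 0.05 by limma (median log2 fold change -0.56). *Fn1*, for fibronectin, which the monocytes of these libraries hold in large amounts, went the other way, with 102708, 91126 and 90684 normalized counts in libraries labelled *Syk*del/del, against 80656, 76828 and 87755 in *Syk*+/+ libraries (log2 fold change 0.21, SE 0.18, adjusted p = 1, limma). *Lamc1* and *Bgn*, with the next highest normalized counts of these matrix genes, had log2 fold changes of 0.02 and -0.79.

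*Adipoq*, for the adipocyte hormone adiponectin, which reticular stromal cells of the marrow also express, lies at chr16:23146536-23158028 on the plus strand. It had 7.8, 7.3 and 21.8 normalized counts in libraries labelled *Syk*del/del, against 15.9, 17.3 and 13.8 in *Syk*+/+ libraries. Replicate 3 labelled *Syk*del/del was the highest of the 6 and replicates 1 and 2 the lowest, at 7 reads each, so the groups overlapped (log2 fold change -0.49, SE 0.41, adjusted p = 1, limma). The fat-cell markers *Lep*, *Cidec* and *Adig* had no read in any library. Of the 16 further adipocyte genes, 9 were tested (median log2 fold change -0.09), 3 were lower at an unadjusted p under 0.05 by limma, and 1 passed the adjusted threshold. That was *Pparg*, the nuclear receptor that directs adipocyte formation and that macrophages express too, which fell to 28.8, 20.9 and 43.7 normalized counts in libraries labelled *Syk*del/del, against 108.5, 161.3 and 100.6 in *Syk*+/+ libraries (log2 fold change -1.98, SE 0.27, adjusted p = 0.00754, limma). Its call was lost without *Syk*+/+ replicate 1 (adjusted p = 0.0620, limma), without *Syk*+/+ replicate 2 (0.0537), without the variance trend (0.301) and with thinned reads (0.202). *Cebpa*, *Lpl* and *Pnpla2*, which had the highest normalized counts of the list and are all active in myeloid cells, had log2 fold changes of 0.18, -0.09 and 0.03. *Fabp4* had 13.3, 14.6 and 35.9 normalized counts in libraries labelled *Syk*del/del, against 50.5, 76.8 and 47.1 in *Syk*+/+ libraries. These did not overlap, but the gene did not pass the adjusted threshold (log2 fold change -1.52, adjusted p = 0.122, limma).

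The 3 endothelial genes had few reads, and no difference between the genotypes was called. *Cdh5*, for the junction protein VE-cadherin at chr8:104101625-104144511 on the plus strand, had 4.4, 2.1 and 3.1 normalized counts in libraries labelled *Syk*del/del, against 8.4, 3.8 and 4.6 in *Syk*+/+ libraries. That is 8 reads over the libraries labelled *Syk*del/del (exact Poisson 95% interval 3.45 to 15.8) and 18 over the *Syk*+/+ libraries (10.7 to 28.4), and the intervals cover counting error only. *Kdr*, for the receptor VEGFR2 at chr5:75932827-75978458 on the minus strand, had 3.3, 1.0 and 4.7 normalized counts in libraries labelled *Syk*del/del and 0.9, 3.8 and 5.5 in *Syk*+/+ libraries, from 7 and 11 reads. The groups overlapped for both, with log2 fold changes of -0.63 (SE 0.48) for *Cdh5* and -0.09 (SE 0.61) for *Kdr* and an adjusted p of 1 for each by limma. The direction of *Kdr* turned without replicate 2 labelled *Syk*del/del, at 0.34, and without *Syk*+/+ replicates 2 and 3, at 0.06 and 0.28. *Emcn*, for the sialomucin endomucin of sinusoidal and venous endothelium at chr3:137341067-137432185 on the plus strand, had 1 read, in replicate 2 labelled *Syk*del/del, and none in the *Syk*+/+ libraries, and was not tested.

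Of 26 further endothelial genes, 15 were tested, 11 of these were below 0, 3 were lower at an unadjusted p under 0.05, and none passed an adjusted p of 0.05 by limma (median log2 fold change -0.30). *Pecam1*, *Eng* and *Flt1*, which had the highest normalized counts (not per length) and which myeloid cells also express, had log2 fold changes of -0.42, -0.11 and -0.49. Detection varied within the list: over the 6 libraries *Vwf* had 159 reads, *Sele* 52, *Stab2* 47, *Tie1* 30, *Erg* and *Egfl7* 17 each and *Flt4* 14, while *Sox7*, *Sox17*, *Ecscr*, *Clec14a* and *Gpihbp1* had none. The pericyte and smooth muscle list, with 9 of 11 genes tested, had a median log2 fold change of -0.07, 5 genes below 0 and 4 above, and none at an unadjusted p under 0.05 by limma. *Acta2*, *Tagln* and *Mcam*, with its highest normalized counts, had log2 fold changes of 0.32, 0.28 and 0.40.

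Of the 9 genes, 8 passed the filter on low counts and were tested, and none passed an adjusted p of 0.05 by limma or by limma-voom on the recovered reads. The background is that 0.353% of all genes tested were called lower and 0.360% were called in either direction. All 8 log2 fold changes were below 0, as were 50.0% of all genes tested, and their median was -0.69 beside -0.000162 over all genes tested. *Col1a1*, *Col1a2* and *Sparc* were lower at an unadjusted p under 0.05, a count of 3 of 8 where 3.35% of all genes tested were. *Col1a2* and *Sparc*, 2 of 8, did not overlap between the genotypes with the libraries labelled *Syk*del/del lower, and 5.24% of all genes tested did so. *Emcn* was the gene that failed the filter.

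Replicate 3 labelled *Syk*del/del decided whether any of the 9 genes was called. Without it, the log2 fold change of *Cxcl12* was -1.06 (adjusted p = 0.0199, limma) and that of *Sparc* -1.54 (adjusted p = 0.0410), and both passed, while *Lepr* moved to -1.45 (adjusted p = 0.219) and *Adipoq* to -0.96 (adjusted p = 0.690). In that fit 48 genes were called over the whole table, and 40 of them were among the 50 called with all libraries. *Cxcl12* and *Sparc* were not among those 50. Over all 17 alternatives the adjusted p lay between 0.0199 and 1 for *Cxcl12* and between 0.0410 and 0.796 for *Sparc*. The same library was the shallowest, at 4168626 reads, and it had the highest sum of the 10 monocyte markers. These sums were 118794, 121068 and 129186 normalized counts in replicates 1, 2 and 3 labelled *Syk*del/del, against 119278, 107623 and 114361 in *Syk*+/+ libraries. With the reads of all libraries thinned to this depth, the log2 fold change was -0.55 for *Cxcl12* and -0.88 for *Lepr*, and that of *Adipoq* turned to 0.043.

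**Figure D2:**
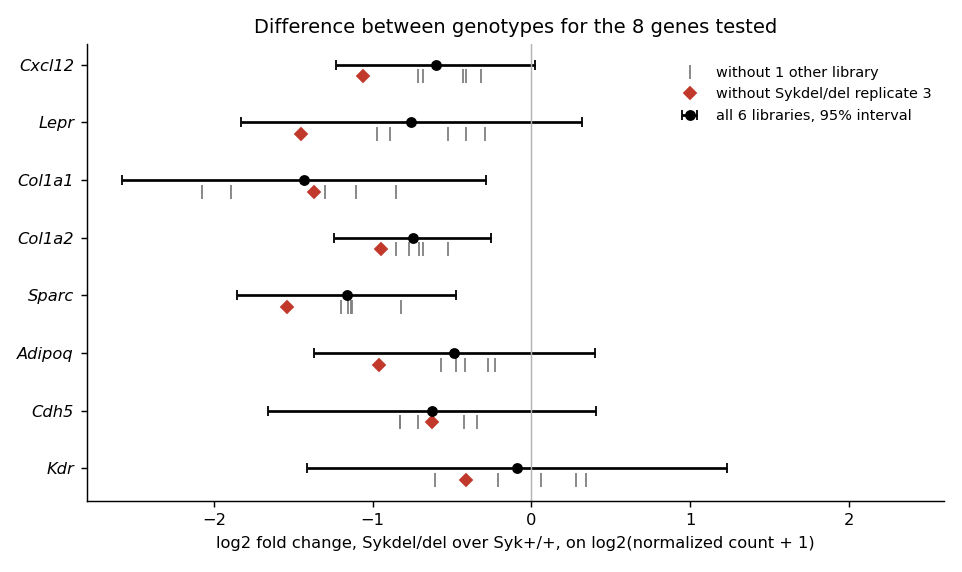
Log2 fold change of libraries labelled Sykdel/del over Syk+/+ libraries (x axis) for the 8 genes tested (y axis). Black points and bars give the value and 95% interval from all 6 libraries, grey ticks the values without 1 other library, and red diamonds the values without replicate 3 labelled Sykdel/del. Without that library Cxcl12 lay at -1.06 and Sparc at -1.54, and the ticks of Kdr fall on both sides of 0.

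The 9 genes summed to 511, 415 and 1122 normalized counts in replicates 1, 2 and 3 labelled *Syk*del/del, against 1191, 873 and 924 in *Syk*+/+ replicates 1, 2 and 3. The ratio of the means was 0.686, and it lay between 0.465 without replicate 3 labelled *Syk*del/del and 0.820 without replicate 2 of that label. Of this sum of counts, which is not per length, *Cxcl12* supplied 71.9% to 82.1% in each library. Ratios of members to *Cxcl12* varied over the libraries to different degrees. *Adipoq* per 100 *Cxcl12* lay between 1.65 and 2.71, *Lepr* per 100 *Cxcl12* ran from 2.89 to 6.44 and *Col1a1* per 100 *Cxcl12* from 1.52 to 10.3. The highest library over the lowest was 1.64 for *Adipoq*, 1.96 for *Col1a2*, 2.21 for *Sparc*, 2.23 for *Lepr* and 6.76 for *Col1a1*. *Adipoq* had only 7 to 18 reads per library, and whether its ratio varied less than the others beyond counting error was not tested.

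Profiles over the 6 libraries were compared as log2(normalized count + 1) less the mean of each gene, by the root mean square of the differences, for the 6 members other than the endothelial genes. Of their 15 pairs, *Cxcl12* and *Adipoq* were the closest, at 0.22, followed by *Cxcl12* and *Lepr* at 0.36. *Lepr* and *Col1a1* were the farthest apart, at 1.43, and *Col1a1* was 0.80 to 1.43 from each of the others. Among 9963 genes that averaged 20 or more normalized counts, those with profiles nearest to that of the summed members were *Adamts2* at 0.16, *Epas1* at 0.18, *Hacd1* at 0.20, *Serpine2* at 0.22 and *Bgn* at 0.22, where the median gene was at 0.58. *Adamts2* encodes the protease that trims procollagen, *Epas1* a hypoxia-inducible transcription factor, *Serpine2* a secreted protease inhibitor and *Bgn* the matrix proteoglycan biglycan. *Bgn* had 31.0, 26.1 and 104.6 normalized counts in libraries labelled *Syk*del/del, against 91.6, 77.8 and 63.7 in *Syk*+/+ libraries, with the highest value in replicate 3 labelled *Syk*del/del, as for *Adipoq*. The likeness describes these 6 libraries, which were normalized together and differ in depth, and no p was attached to it.

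**Figure D3:**
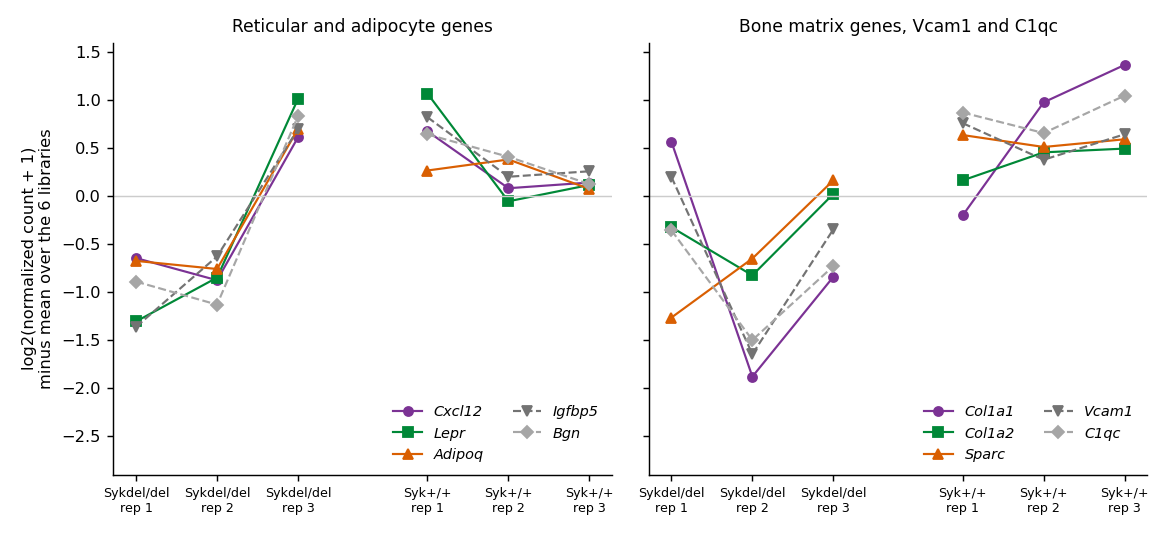
Log2(normalized count + 1) less the mean over the 6 libraries (y axis) in each library labelled Sykdel/del (left) and each Syk+/+ library (right). On the left panel Cxcl12, Lepr, Adipoq, Igfbp5 and Bgn are low in replicates 1 and 2 and high in replicate 3 labelled Sykdel/del. On the right panel Col1a1, Col1a2, Sparc and, from the marrow macrophage list, Vcam1 and C1qc are plotted. Col1a1 is lowest in replicate 2 labelled Sykdel/del, at 6.3 normalized counts.

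Ligands and receptors that partner these genes were examined in the same libraries. *Cxcr4* had 1895, 2033 and 2472 normalized counts in libraries labelled *Syk*del/del, against 2159, 2140 and 1892 in *Syk*+/+ libraries (log2 fold change 0.04, 95% interval -0.19 to 0.27, adjusted p = 1, limma). *Nrp1*, a co-receptor for VEGF, and *Itga1*, a chain of a collagen-binding integrin, had log2 fold changes of 0.17 and 0.24, and neither passed the adjusted threshold. *Vegfa*, the main ligand of VEGFR2, had 5.5, 32.3 and 31.2 normalized counts in libraries labelled *Syk*del/del, against 10.3, 10.6 and 4.6 in *Syk*+/+ libraries (log2 fold change 1.08, 95% interval -0.15 to 2.31, adjusted p = 0.991, limma), and the groups overlapped. *Ddr2*, a collagen receptor, had a log2 fold change of -0.97 with a 95% interval of -1.99 to 0.05. *Ackr3*, the other receptor of CXCL12, and *Lep*, the ligand of the leptin receptor, had no read in any library. Of 17 ligands and receptors, 14 were tested, and 1 passed an adjusted p of 0.05. That was *Vegfc*, a growth factor for lymphatic endothelium, which fell to 3.3, 3.1 and 3.1 normalized counts in libraries labelled *Syk*del/del, against 15.0, 16.3 and 14.8 in *Syk*+/+ libraries (log2 fold change -1.97, SE 0.37, adjusted p = 0.0434, limma). The call rests on few reads and was lost without any 1 of the 6 libraries, with an adjusted p of 0.0534 to 0.265.

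Lists of other marrow cells were set beside these values. The 15 marrow macrophage genes summed to 2597, 2415 and 2903 normalized counts in libraries labelled *Syk*del/del, against 3237, 3603 and 3427 in *Syk*+/+ libraries, without overlap. All 14 that were tested lay below 0, the median log2 fold change being -0.87, and *C1qc* and *Cd5l* passed the threshold. *Adgre1*, *Hmox1* and *Siglec1*, which had the highest normalized counts of the list, had log2 fold changes of -0.19, -0.47 and -0.34. *C1qc*, a chain of complement C1q, fell to 26.6, 11.5 and 20.3 normalized counts in libraries labelled *Syk*del/del, against 63.6, 54.7 and 72.0 in *Syk*+/+ libraries (log2 fold change -1.72, SE 0.30, adjusted p = 0.0227, limma). *Cd5l*, for a protein secreted by tissue macrophages, fell to 21.1, 15.6 and 17.2, against 49.6, 62.4 and 60.0 in *Syk*+/+ libraries (log2 fold change -1.62, SE 0.24, adjusted p = 0.0106, limma). Both calls were lost without replicate 2 labelled *Syk*del/del (adjusted p of 0.0733 for *C1qc* and 0.0581 for *Cd5l*) and without any 1 *Syk*+/+ library (0.0967 to 0.167 for *C1qc* and 0.0654 to 0.0967 for *Cd5l*). They were also lost without the variance trend (0.395 for *C1qc* and 0.0827 for *Cd5l*) and with thinned reads (0.202 and 0.166 for the same genes). *Timd4* had reads in 1 library only, *Syk*+/+ replicate 3. In replicate 3 labelled *Syk*del/del the macrophage sum, at 2903, was the highest of its label, as *Cxcl12* was, and it was below every *Syk*+/+ library.

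All 11 erythroid genes were tested, all were below 0, with a median log2 fold change of -0.74, 4 were lower at an unadjusted p under 0.05, and none passed an adjusted p of 0.05 by limma. Their sums overlapped, at 450 to 698 normalized counts in libraries labelled *Syk*del/del and 468 to 1161 in *Syk*+/+ libraries. The 11 platelet and megakaryocyte genes summed to 59.8 to 65.7 in libraries labelled *Syk*del/del and to 81.4 to 103.8 in *Syk*+/+ libraries, without overlap. Of these sums *Vwf*, which is also in the endothelial list, held 17.7, 17.7 and 23.4 in libraries labelled *Syk*del/del. It held 36.5, 41.3 and 26.8 in *Syk*+/+ libraries, and without *Vwf* the sums overlapped. Sums of plasma cell genes were higher in libraries labelled *Syk*del/del, at 2228 to 2327, against 1797 to 2073 in *Syk*+/+ libraries. The median log2 fold change was 0.11 for the monocyte list, 0.30 for plasma cells, 0.33 for granulocyte granules, 0.07 for stem and progenitor cells, -0.46 for platelets and megakaryocytes, -0.43 for T and NK cells, -0.22 for basophils and mast cells, and -0.19 each for B cells and plasmacytoid dendritic cells. In these lists no gene passed an adjusted p of 0.05 by limma. The most that were under an unadjusted p of 0.05 in 1 direction were 4, the plasma cell genes that were higher in libraries labelled *Syk*del/del. That is as many as the erythroid genes that were lower. The part of these other cells in the levels of the 9 genes was not tested.

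**Figure D4:**
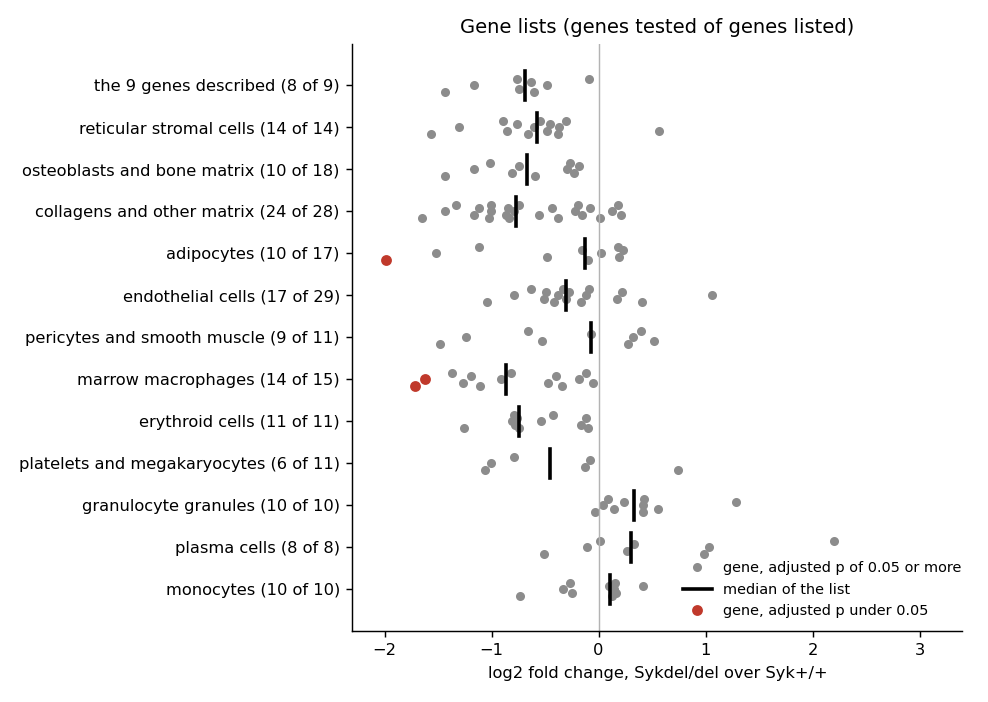
Log2 fold change of libraries labelled Sykdel/del over Syk+/+ libraries (x axis) for each gene tested in 13 lists (y axis, with the genes tested of the genes listed). Grey points are genes that did not pass an adjusted p of 0.05, red points genes that did, and black bars the medians. The medians lie at -0.69 for the 9 genes described, at -0.87 for marrow macrophages, at -0.74 for erythroid cells and at 0.11 for monocytes, and lists share some genes.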

How the data were processed

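Marrow monocyte RNA was depleted of ribosomal RNA and sequenced from directional libraries, and per the labels the reads were aligned to mm10. The authors used CLC Genomics Workbench; its version, annotation and strand setting are not stated in any source used. Values were deposited on the log2 scale, log2(x + 1), where x is a read count multiplied by 1 factor per library. The methods name TPM, but the values carry no division by length. The reads recovered from x were whole within 0.06 read for 100% of values. A column of p-values that the authors deposited for their own comparison was not used. Part of the genetic background of the mice is not reported here.

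The 14023 genes that reached a normalized count of 1 in 3 or more libraries were tested with limma 3.58.1 in R 4.3.3, with a variance trend and Benjamini-Hochberg adjustment over all of them at a threshold of 0.05. As in the study, immunoglobulin genes (137 of those tested) were then left out of counts. A fold change on the log2(x + 1) scale understates the change of low genes. Exon lengths and positions came from GENCODE M21, and no exon of the 9 genes overlapped an exon of another gene. On simulated data for this comparison (13587 genes), 77 of 100 genes with a simulated log2 fold change of 1 were called, as were 95 of 100 with one of 2 and 11 of 13387 with none. The changed genes were drawn only from genes averaging 20 or more normalized counts, and all simulated spreads came from such genes. The rates are averages over such genes and do not apply to each of the 9, of which *Adipoq*, *Cdh5*, *Kdr* and *Emcn* averaged less.

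The 9 genes and all 18 other lists were chosen with earlier results of these data known. Genes named were the 9, *Syk*, in each list described gene by gene the 3 with the highest mean normalized count and those past the threshold, and the 5 nearest profiles. Lists given only by sums, counts or medians were not described gene by gene. Other genes named were chosen after their values were seen. Alternatives were 2 pseudocounts, 2 filters, 3 scalings, limma without the trend, limma-voom on recovered reads, reads thinned to the shallowest library, a replicate block and leaving out each library.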

Additional observations from a re-analysis of the deposited data

How the results depend on the processing

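The 9 genes gave no call under 16 of 17 alternatives, the exception being the fit without replicate 3 labelled Sykdel/del, so the range without any 1 library was 0 to 2 genes. The number of genes called over the whole table was 50, and it was 6 without the trend, 0 with thinned reads and between 4 and 66 without any 1 library. Of 120 genes of the related lists and partners outside the 9, 86 were tested in the main fit. Of these 86, 2 were called, beside 0.360% of all genes tested. The count was 1 with a pseudocount of 0.5, with no filter, with the stricter filter, with limma-voom and with the replicate block (Pparg each time). It was also 1 without the trend (Vegfc). This count was 0 with thinned reads and between 0 and 4 without any 1 library. The cause of these changes was not tested. The direction reversed for Kdr without replicate 2 labelled Sykdel/del (0.34) and without Syk+/+ replicates 2 (0.06) and 3 (0.28), within a range of -0.61 to 0.34 without any 1 library, and for Adipoq with thinned reads (0.043). The other 6 genes tested kept their direction under all alternatives run.

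Replicate numbers did not pair the libraries: deviations of same-numbered libraries correlated at -0.027 to 0.041. With the replicate block 48 genes were called over the whole table and none of the 9. At 4168626 to 7071823 reads per library, Cdh5, Kdr and Emcn rest on 26, 18 and 1 reads in all, so that their values are imprecise.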
